A study of Mus musculus with 3 samples.

Results

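The genes described here are the classical cadherins, the catenins that bind to them, and nearby families of the cadherin superfamily in RNA captured with tagged ribosomes from the cerebral cortex of adult mice. They were chosen by symbol: every gene named Cdh followed by a number, the alpha-catenins, beta-catenin, the delta-catenins, Jup (plakoglobin), the 3 calsyntenins and the 3 Celsr genes. Of 32532 gene symbols listed, 36 met this rule, among them 23 numbered cadherins, 7 catenin genes, 3 calsyntenins and 3 Celsr genes. The name classical covers only 18 of the 23 numbered cadherins, 5 of type I and 13 of type II. The other numbered cadherins are Cdh13, Cdh16, Cdh17, Cdh23 and Cdh26, and the calsyntenins and Celsr proteins are more distant relatives.

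The study profiled cortical interneurons of adult mice that carry the driver Htr3a-Cre (NO176) and the reporter allele Rosa26-LSL-EGFP/Rpl10a. Cre made under Htr3a regulatory sequence removes a stop cassette at the Rosa26 locus, and cells that have expressed Cre then carry the ribosomal protein Rpl10a fused to EGFP. Whole cortex was homogenised, tagged polysomes were captured with antibodies against EGFP, and the RNA bound to them was sequenced, a method called TRAP (translating ribosome affinity purification). All 3 libraries, replicates 1, 2 and 3, belong to this single immunopurified group. Their sexes, exact ages and number of animals per library are not given in the labels, nor is it said that the replicates came from separate animals. The spread behind each p-value is thus that of these 3 libraries and may be technical. RNA from unpurified cortex was not analysed here. Levels of genes were therefore compared with one another within libraries, and no enrichment over the tissue was computed.

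Gene counts summed to 14383545, 13951332 and 14461053 in replicates 1, 2 and 3, and the 36 genes together held 0.338%, 0.332% and 0.324% of them. Levels are given in TPM, in which each count is divided by the length of the gene's merged exons and scaled to a fixed total per library. An SD over the 3 libraries (n = 3) follows each mean after ±. The defining GABAergic markers Gad1, Gad2, Slc32a1, Dlx1, Dlx5 and Dlx6 were all present, with summed levels of 3123, 3317 and 3173 TPM. The 6 markers of excitatory neurons summed to 476, 485 and 596 TPM, and those of oligodendrocytes to 240, 162 and 145 TPM. Levels below are those of the whole captured RNA, and the part of these other cells in them was not tested. In such bulk samples fewer cells of a type and less RNA per cell cannot be told apart.

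Classical cadherins are single-pass membrane proteins that bind cadherins on a neighbouring cell, usually of the same kind, in the presence of calcium. Their cytoplasmic tails bind beta-catenin or plakoglobin and a delta-catenin, and alpha-catenins link the complex to actin. In the cortex this complex holds the sides of synaptic contacts together, shapes dendritic spines and guides migrating neurons. Type I and type II cadherins differ in the first extracellular domain, where type I proteins insert a single tryptophan side chain into the partner molecule and type II proteins insert a pair. Calsyntenins are synaptic membrane proteins that also serve as cargo adaptors for kinesin motors. Celsr proteins, the mammalian relatives of the fly protein Flamingo, act in planar cell polarity and axon guidance.

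The difference between the classes can be read in the coding sequence, and 6 windows of 60 bases show it for Cdh4 and for 4 of the higher type II genes, with E-cadherin (Cdh1) as a further type I gene. No window of Cdh2 is printed. Each window starts at the first codon after a basic cleavage site at the end of the pro-domain and lies within 1 coding exon. Capitals mark TGG, the tryptophan codon, where it stands in reading frame among the first 8 codons of the sense strand. Sequences are from the GENCODE M21 transcripts on GRCm38, at chr2:179797560-179797619 (plus strand) for Cdh4, chr8:106653582-106653641 (plus) for Cdh1, chr8:102679621-102679680 (minus) for Cdh11, chr15:21237843-21237902 (plus) for Cdh12, chr1:104934274-104934333 (plus) for Cdh20 and chr8:99400735-99400794 (minus) for Cdh8.
Cdh4: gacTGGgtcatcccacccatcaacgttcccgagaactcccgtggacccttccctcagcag
Cdh1: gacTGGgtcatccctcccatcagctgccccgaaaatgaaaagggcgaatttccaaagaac
Cdh11: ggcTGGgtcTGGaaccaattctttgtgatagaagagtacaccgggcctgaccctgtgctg
Cdh12: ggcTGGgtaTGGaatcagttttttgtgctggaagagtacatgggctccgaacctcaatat
Cdh20: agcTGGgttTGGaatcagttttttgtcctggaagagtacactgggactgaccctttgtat
Cdh8: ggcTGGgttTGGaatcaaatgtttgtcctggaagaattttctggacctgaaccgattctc

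In these windows the type I genes Cdh4 and Cdh1 carry TGG at codon 2 alone, and the type II genes carry it at codons 2 and 4. Across the family, 5 of 5 type I genes had 1 such codon and 13 of 13 type II genes had 2. A window was accepted only where TGG stood among its first 6 codons. The presence of the first TGG is thus part of the choice, and the count of 1 or 2 is not fixed by that rule. Type I and type II are known to differ in this feature, so these counts illustrate it and are not a test of it. Among all in-frame windows of 20 codons in 21689 mouse coding sequences, 0.0216% held TGG at codons 2 and 4, and 1.79% of those with TGG at codon 2 also had it at codon 4. Of the 5 other numbered cadherins, only Cdh26 had such a window, with 1 TGG. For Cdh13, Cdh16, Cdh17 and Cdh23 no window met the rule.

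The captured RNA held transcripts of most of these genes. At least 10 TPM in each of the 3 libraries was reached by 21 of 36 genes (58.3%), compared with 47.7% of the 16652 genes that had a length and a count. This count uses merged exons as length. With principal transcripts as length the mean of Celsr3 was 8.06 TPM and that of Cdh7 15.5 TPM. At least 1 TPM in each library was reached by 26 genes (72.2%, against 73.0%) and at least 100 TPM by 4 (11.1%, against 10.6%). The 36 genes include 2 without a count, while the 16652 leave such genes out, so the comparison is not like for like. Of all genes, 23891 had a length. The median level of the 36 genes was 21.3, 21.3 and 23.2 TPM in replicates 1, 2 and 3, beside 10.2, 11.3 and 11.7 TPM over those 16652 genes. The highest levels belonged to Ctnnd2, Clstn1, Ctnnb1 and Clstn2. A total of 31 genes had at least 10 counts over the libraries, and Cdh17 and Cdh23 had none.

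**Figure D1:**
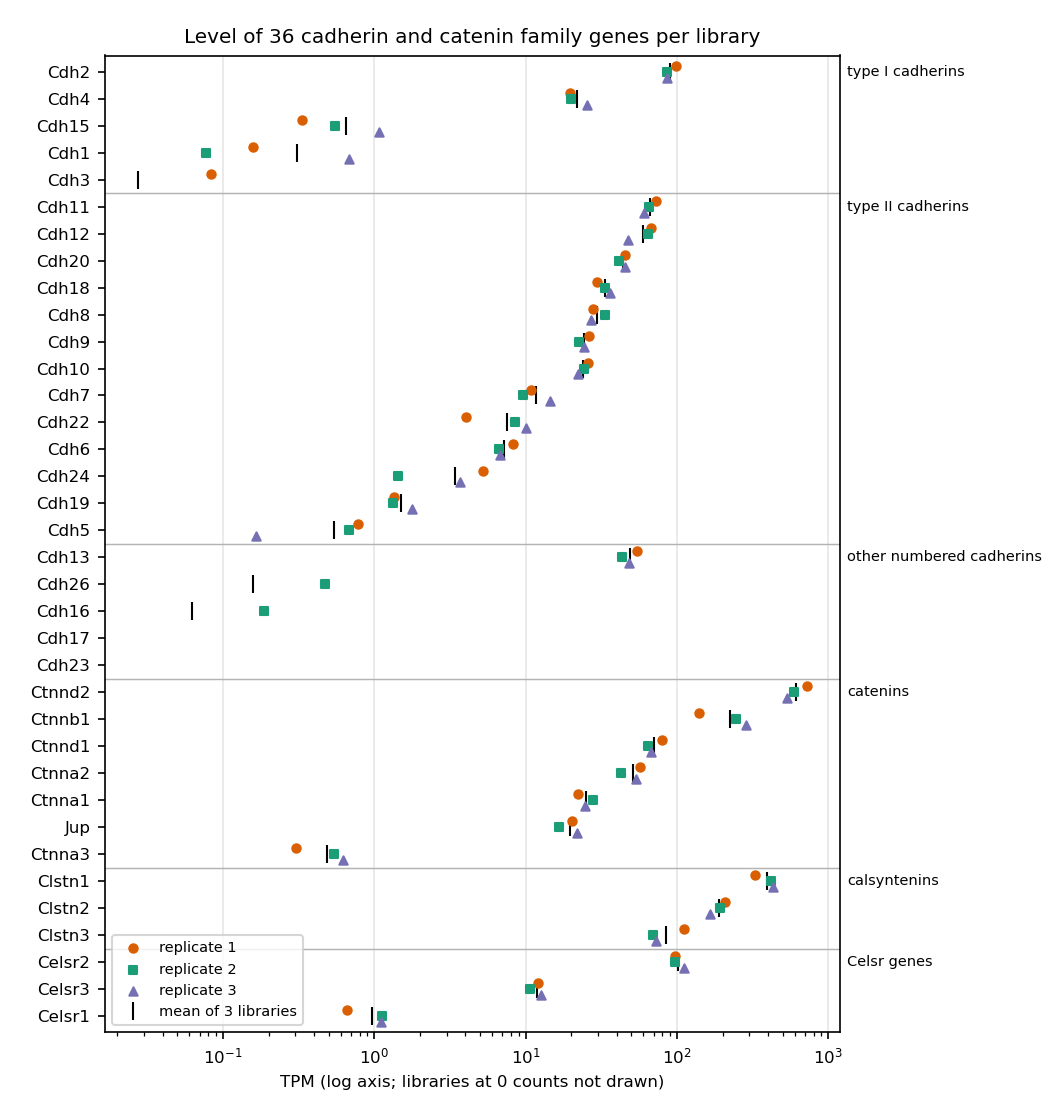
Level of each of the 36 genes in TPM on a log axis, 1 point per library and a black tick for the mean of the 3, grouped by family and sorted by level within it. Ctnnd2 at 529 to 718 TPM and Clstn1 at 328 to 430 TPM lie farthest to the right, and Cdh17 and Cdh23 have no point because all 3 libraries had 0 counts.

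Among type I cadherins, N-cadherin was the main transcript and R-cadherin the only other above 10 TPM. Cdh2, which encodes N-cadherin, the widely used cadherin of neurons, stood at 98.6, 86.0 and 85.2 TPM in replicates 1, 2 and 3 (89.9 ± 7.54), higher than 85.9% of genes with a count. Replicate 1 was the highest and the other two were alike. Cdh4, which encodes R-cadherin, stood at 19.6, 20.0 and 25.4 TPM (21.7 ± 3.25) and lay below Cdh2 in 3 of 3 libraries. The remaining type I genes were near the lower limit of detection. Cdh1, the cadherin of epithelia, had 2, 1 and 9 counts, and Cdh15, the M-cadherin of muscle, had 3, 5 and 10. Cdh3, the P-cadherin first found in placenta, had a single count in replicate 1.

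Type II cadherins were more numerous, and 7 of 13 reached 10 TPM in every library. Cdh11, also called OB-cadherin after the osteoblasts in which it was found, stood at 73.1, 65.1 and 60.1 TPM (66.1 ± 6.57). Cdh12, a brain cadherin, stood at 66.8, 64.1 and 47.4 TPM (59.5 ± 10.5). Replicate 3 was the lowest for both genes, and the library ranges of Cdh11 and Cdh12 overlapped.

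Cdh20 followed at 45.2, 41.1 and 45.2 TPM (43.8 ± 2.38), with a ratio of 1.12 between the highest and the lowest library in CPM (counts scaled to library size, here after TMM scaling). Cdh18 stood at 29.8, 33.5 and 36.3 TPM (33.2 ± 3.24) and Cdh8, which marks subsets of cortical and striatal neurons during development, at 28.0, 33.5 and 27.0 TPM (29.5 ± 3.50). These levels overlapped with each other, while all 3 libraries of Cdh20 lay above all 3 of Cdh18. That order turned with other lengths, to 33.2 TPM for Cdh20 and 41.7 TPM for Cdh18 with the longest transcripts and 28.8 and 36.1 TPM with the principal ones. Cdh9, known from hippocampal mossy fibre synapses, stood at 26.0, 22.6 and 24.5 TPM (24.4 ± 1.73). Cdh10 stood at 25.6, 24.1 and 22.0 TPM (23.9 ± 1.82), and Cdh7 at 10.8, 9.60 and 14.5 TPM (11.6 ± 2.53). Cdh9 and Cdh10 overlapped, and Cdh7 crossed 10 TPM in replicates 1 and 3 only.

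The other 5 type II genes had means from 0.539 TPM (Cdh5) to 7.49 TPM (Cdh22). Cdh6 stood at 7.23 ± 0.913 TPM and Cdh24 at 3.43 ± 1.90 TPM. Cdh19, a cadherin of Schwann cell precursors and other glia, stood at 1.36, 1.33 and 1.78 TPM. Cdh5, the VE-cadherin that joins endothelial cells, had 9, 8 and 2 counts. The 5 endothelial markers Pecam1, Cldn5, Flt1, Tek and Esam were similarly low, with a summed level of 4.11, 6.53 and 5.10 TPM. Of these 5, 1 was at 1 TPM or more in every library (73.0% of genes with a length and a count). Cldn5 was at 0 in 2 libraries.

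Of the 5 numbered cadherins outside both classes, only Cdh13 was present above 1 TPM. Cdh13 encodes T-cadherin, which is held in the membrane by a lipid anchor and has no cytoplasmic tail for catenins. Its level was 54.3, 43.6 and 48.0 TPM (48.6 ± 5.41), between those of Cdh12 and Cdh20, and its library range overlapped with both. Cdh26 had 0, 4 and 0 counts (a summed count of 4, exact Poisson 95% interval 1.09 to 10.2) and Cdh16, a kidney cadherin, 0, 2 and 0 (0.242 to 7.22). For Cdh3 the summed count of 1 had an interval of 0.0253 to 5.57. These intervals cover counting error only. Cdh17, an intestinal and liver cadherin, was not detected, where 3 counts would equal 0.243, 0.238 and 0.232 TPM in replicates 1, 2 and 3. Cdh23, part of the tip links of hair cells, was not detected either, with a limit of 0.0643, 0.0629 and 0.0613 TPM.

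Summed over the 23 numbered cadherins, the level was 498, 463 and 460 TPM (474 ± 21.3). Type II genes made up 65.9 ± 1.30% of this sum and type I genes 23.8 ± 0.712%. Cdh2 held 19.0 ± 0.721%, Cdh11 13.9 ± 0.810%, Cdh12 12.5 ± 1.92% and Cdh13 10.2 ± 0.766%. These 4 genes accounted for 58.8%, 55.9% and 52.4% of the cadherin transcripts in replicates 1, 2 and 3. The share of each class moved by less than 3 percentage points between libraries. All these shares rest on merged exons as length, and their SD does not cover that choice. With the principal transcripts Cdh13 stood at 94.7 TPM beside 98.3 TPM for Cdh2, and Cdh12 at 41.0 TPM. Among the 18 cadherins with at least 10 counts, ordered by level, the library ranges of 11 of 17 neighbouring pairs overlapped. With merged exons as length, the ranges were apart between Cdh2 and Cdh11, Cdh20 and Cdh18, Cdh8 and Cdh9, Cdh4 and Cdh7, Cdh6 and Cdh24, and Cdh19 and Cdh15. The step between Cdh4 and Cdh7 shrank to 18.7 against 17.9 TPM with the longest transcripts and to 16.2 against 15.5 TPM with the principal ones.

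**Figure D2:**
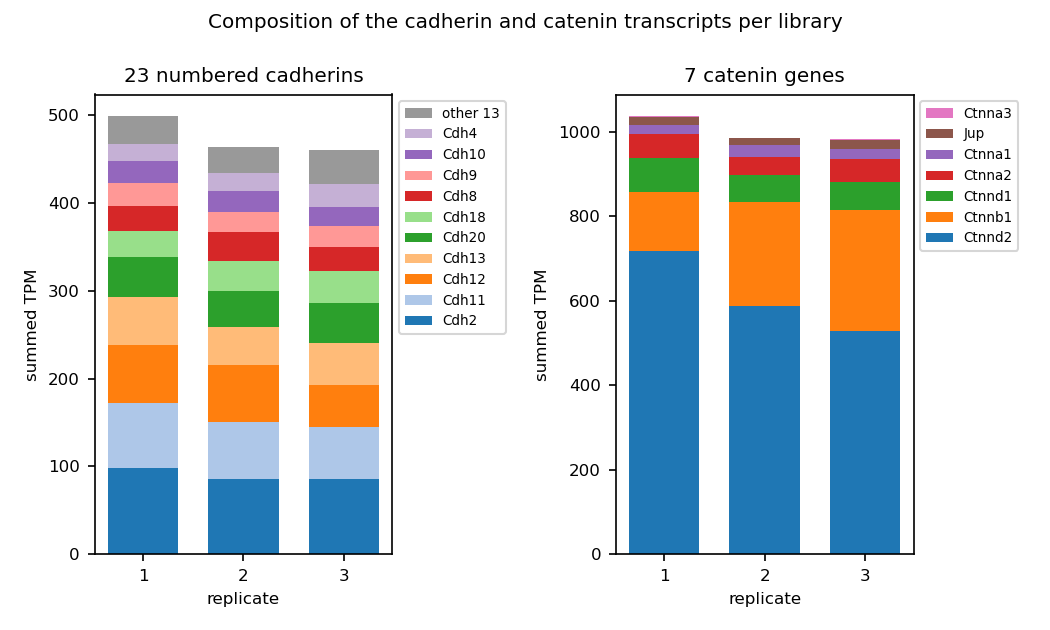
Summed TPM of the 23 numbered cadherins (left) and the 7 catenin genes (right) in replicates 1, 2 and 3, stacked by gene, with the 13 lower cadherins in grey. The cadherin total stays between 460 and 498 TPM, while in the catenin bars the Ctnnd2 segment is 718, 588 and 529 TPM and the Ctnnb1 segment is smallest in replicate 1 at 140 TPM.

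Every gene was then compared with Cdh2 within the same library, per exon length, with edgeR's quasi-likelihood test and Benjamini-Hochberg adjustment over 14313 genes. Of the 22 cadherins other than Cdh2, 17 had enough counts to be tested, and 0 of 17 were higher than Cdh2 (background 13.4% of all genes tested) and 17 of 17 were lower (background 79.8%). Their median log2 difference was -2.04, beside -2.40 over all genes tested. Cdh2 was chosen as the reference with its level known, so these counts describe its place in the family. A deviation of Cdh2 in a library enters every comparison with it, so adjusted p-values may be too small. The same holds for Ctnnb1, Clstn1 and Celsr2 as reference genes below.

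Cdh11 lay closest to Cdh2, with a log2 difference of -0.45 (SD of the library differences 0.05; edgeR, adjusted p = 0.00263), a level 1.36-fold lower. Cdh12 was 1.52-fold lower (-0.60, SD 0.21; edgeR, adjusted p = 0.00223). Both genes were below Cdh2 in 3 of 3 libraries. Cdh13 was 1.85-fold lower with merged exons as length (-0.89, SD 0.08; edgeR, adjusted p = 9.11e-05). That call depended on the length. The merged exons of Cdh13 come to 11233 bases and its principal transcript to 3785 bases, and with principal transcripts as lengths Cdh13 and Cdh2 stood at 94.7 and 98.3 TPM, a difference of -0.06 (edgeR, adjusted p = 0.592). With the same lengths Cdh10 stood at 46.3 instead of 23.9 TPM, Cdh12 at 41.0 instead of 59.5 TPM, Cdh20 at 28.8 instead of 43.8 TPM and Cdh9 at 15.98 instead of 24.4 TPM, and with the longest transcripts Cdh7 stood at 17.9 TPM and Jup at 29.8 TPM. The order of Cdh11, Cdh12 and Cdh13 therefore depended on the choice of transcript, as did that of Cdh20 and Cdh18 and that of Cdh9 and Cdh10, and the transcripts present in these cells cannot be told apart from gene counts.

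Further down, Cdh20 was 2.05-fold, Cdh18 2.69-fold, Cdh8 3.03-fold, Cdh9 3.69-fold and Cdh10 3.76-fold below Cdh2. Cdh4 was 4.11-fold below (log2 difference -2.04, SD 0.30; edgeR, adjusted p = 3.06e-05) and Cdh7 7.69-fold below. Type II genes thus spanned the range from just under Cdh2 to Cdh5, at a log2 difference of -7.40. The lowest tested cadherin was Cdh1 at -8.16 (edgeR, adjusted p = 0.00117). These values use merged exons as length. With the principal transcripts Cdh10 lay nearest to Cdh2 among Cdh8, Cdh9, Cdh10, Cdh18 and Cdh20, at a log2 difference of -1.08. Cdh18 then stood at -1.43, Cdh8 at -1.58, Cdh20 at -1.77 and Cdh9 at -2.62. Cdh10 also passed Cdh12, which stood at -1.26.

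**Figure D3:**
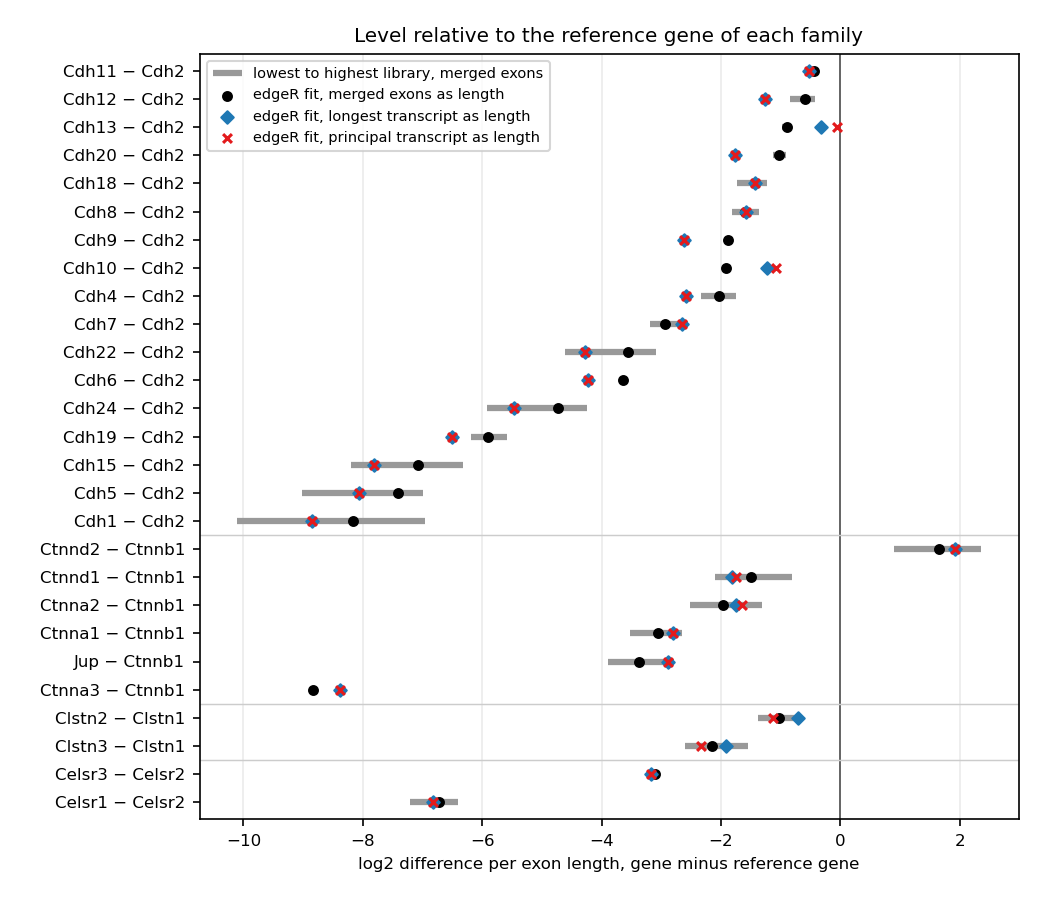
Log2 difference per exon length between each tested gene and the reference of its family (Cdh2, Ctnnb1, Clstn1 or Celsr2), with a grey bar from the lowest to the highest library and markers for the fitted value under 3 choices of length. Ctnnd2 at 1.64 is the only gene to the right of 0, and the Cdh13 marker moves from -0.89 to -0.06 with the principal transcript.

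The catenin genes were led by Ctnnd2 and Ctnnb1, which stood above every cadherin in every library. Ctnnd2, a delta-catenin of neurons found at postsynaptic sites, stood at 718, 588 and 529 TPM (612 ± 96.6), higher than 98.9% of genes with a count. Ctnnb1, beta-catenin, which binds cadherin tails and also carries canonical Wnt signals, stood at 140, 245 and 285 TPM (224 ± 75.2). Of its exons, 15.1% are overlapped by Mir7090 and Ulk4, so the count of this reference gene is uncertain to that extent. Replicate 1 had the highest Ctnnd2 and the lowest Ctnnb1, and the ranges of the 2 genes did not overlap.

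Ctnnd1, the p120-catenin that keeps cadherins at the cell surface, stood at 79.9, 64.1 and 66.9 TPM (70.3 ± 8.42). Of its exons, 61.2% are overlapped by another annotated gene, Gm28635, so its count is uncertain. Ctnna2, the alpha-catenin of neurons, stood at 56.6, 42.9 and 53.8 TPM (51.1 ± 7.21). The broadly expressed Ctnna1 stood at 22.3, 27.9 and 24.8 TPM (25.0 ± 2.82), below Ctnna2 in every library. Jup, plakoglobin, which replaces beta-catenin in desmosomes, stood at 20.3, 16.5 and 21.9 TPM (19.6 ± 2.77). Ctnna3, the alpha-catenin of heart, had only 6, 11 and 13 counts (0.488 ± 0.167 TPM). In the order Ctnnd2, Ctnnb1, Ctnnd1, Ctnna2, Ctnna1, Jup and Ctnna3, the library ranges of 6 of 6 neighbouring pairs were apart with merged exons as length. The order of Ctnnd1 and Ctnna2 turned with other lengths, to 61.3 and 64.6 TPM with the longest transcripts and 55.2 and 59.6 TPM with the principal ones.

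Among the delta- and the alpha-catenins the neuronal form predominated. The ratio of Ctnnd2 to Ctnnd1 was 8.99, 9.18 and 7.91 (8.69 ± 0.685), and that of Ctnna2 to Ctnna1 was 2.54, 1.54 and 2.17. The size of the first ratio is uncertain, because Gm28635 overlaps 61.2% of the Ctnnd1 exons. Beta-catenin exceeded plakoglobin 6.89-fold in replicate 1, 14.9-fold in replicate 2 and 13.0-fold in replicate 3. Summed alpha-catenins stood at 79.1, 71.3 and 79.2 TPM, Ctnnb1 with Jup at 160, 262 and 307 TPM, and the delta-catenins at 798, 652 and 596 TPM. The alpha-catenin sum came to 0.494, 0.273 and 0.258 of the sum of Ctnnb1 and Jup. The delta-catenin sum exceeded the cadherin sum in every library.

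Compared with Ctnnb1 by the same test, 1 of 6 other catenin genes was higher (background 2.91%) and 5 of 6 were lower (background 86.9%), with a median log2 difference of -2.52 beside -3.63 over all genes. Ctnnd2 was 3.13-fold higher (log2 difference 1.64, SD 0.76; edgeR, adjusted p = 0.00012), above Ctnnb1 in 3 of 3 libraries. Ctnnd1 was 2.81-fold lower (-1.49, SD 0.70; edgeR, adjusted p = 0.00141) and Ctnna2 3.91-fold lower (-1.97, SD 0.67; edgeR, adjusted p = 2.08e-05). Ctnna1 and Jup were 8.36-fold and 10.4-fold lower. The first 3 of these calls were not stable. With the spread of each gene's own 3 differences alone (limma without moderation), the adjusted p was 0.0868 for Ctnnd2 and 0.0671 for Ctnnd1. Without replicate 2 the edgeR adjusted p was 0.0645 for Ctnnd2, 0.219 for Ctnnd1 and 0.0896 for Ctnna2, which left 0 genes higher and 3 lower, and without replicate 3 it was 0.130 for Ctnnd1.

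All 3 calsyntenins were present, and the lowest value in any library was 69.3 TPM for Clstn3. Clstn1, a kinesin cargo adaptor, stood at 328, 420 and 430 TPM (393 ± 56.6), higher than 97.8% of genes with a count. Clstn2 stood at 206, 192 and 166 TPM (188 ± 20.5). Clstn3, which takes part in organising inhibitory and excitatory synapses, stood at 112, 69.3 and 72.3 TPM (84.5 ± 23.8). Replicate 1 was the lowest for Clstn1 and the highest for the other calsyntenins, and none of the ranges overlapped. The ratio of Clstn1 to Clstn2 was 1.59, 2.19 and 2.60 in replicates 1, 2 and 3. Against Clstn1, 0 of 2 were higher (background 1.63%) and 2 of 2 lower (background 95.9%), by 2.04-fold for Clstn2 (log2 difference -1.03, SD 0.36; edgeR, adjusted p = 8.59e-05) and 4.45-fold for Clstn3 (-2.15, SD 0.60; edgeR, adjusted p = 1.32e-09).

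Of the Celsr genes, Celsr2 predominated. It stood at 97.3, 96.3 and 111 TPM (102 ± 8.34), beside 89.9 ± 7.54 TPM for Cdh2, and at 72.4 beside 98.3 TPM with the principal transcripts as length. Celsr3, known for its part in the growth of long axon tracts, stood at 11.97, 10.8 and 12.6 TPM (11.8 ± 0.951). With the longest and the principal transcripts as length Celsr3 had means of 9.31 and 8.06 TPM. Celsr1, a planar polarity gene of epithelia and neural progenitors, had 20, 35 and 35 counts (0.963 ± 0.264 TPM). The 3 genes kept this order in each library. Against Celsr2, 0 of 2 were higher (background 11.7%) and 2 of 2 lower (background 82.0%). Celsr3 was 8.61-fold lower (log2 difference -3.11, SD 0.08; edgeR, adjusted p = 4.94e-11), and Celsr1 differed by -6.72 (SD 0.41; edgeR, adjusted p = 7.54e-10). With limma without moderation the adjusted p was 0.00659 for Celsr3 and 0.00736 for Celsr1.

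A chi-square test against counts predicted by scaled library sizes called 21 of the 27 genes that had a mean of at least 1 CPM, a share close to the background of 74.3% of 12949 genes tested. Of the 27 genes tested, 5 were called with replicate 1 as the lowest library (background 30.9% of all genes tested), namely Cdh4, Cdh22, Clstn1, Ctnna1 and Ctnnb1. Called with replicate 1 as the highest were 12 of the 27 (background 29.6% of all genes tested), among them Cdh2, Cdh11, Cdh12, Cdh13, Clstn2, Clstn3, Ctnna2, Ctnnd1 and Ctnnd2. Oligodendrocyte markers were also highest in replicate 1, with a summed level of 240, 162 and 145 TPM over 6 genes, although Mbp stood at 37.5, 37.1 and 37.3 TPM, and their part in these differences was not tested. Without replicate 1 the test called 12 of 27 genes, where it called 42.5% of all genes.

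The size of these differences was moderate for most genes and large for a few. The median ratio of the highest to the lowest library, in TMM-scaled CPM, was 1.27 over the 27 genes and 1.41 over all genes tested. Ctnnb1 had a ratio of 1.98 (chi-square test, adjusted p = 1.96e-144) and Clstn3 of 1.64. Cdh24 and Cdh22, both low, had ratios of 3.71 and 2.42. For Ctnnd2 the ratio was only 1.40, although its high counts gave the smallest adjusted p (chi-square test, 2.80e-230). No difference beyond counting error was called for Cdh9, Cdh18, Cdh19, Cdh20, Celsr1 and Celsr3.

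**Figure D4:**
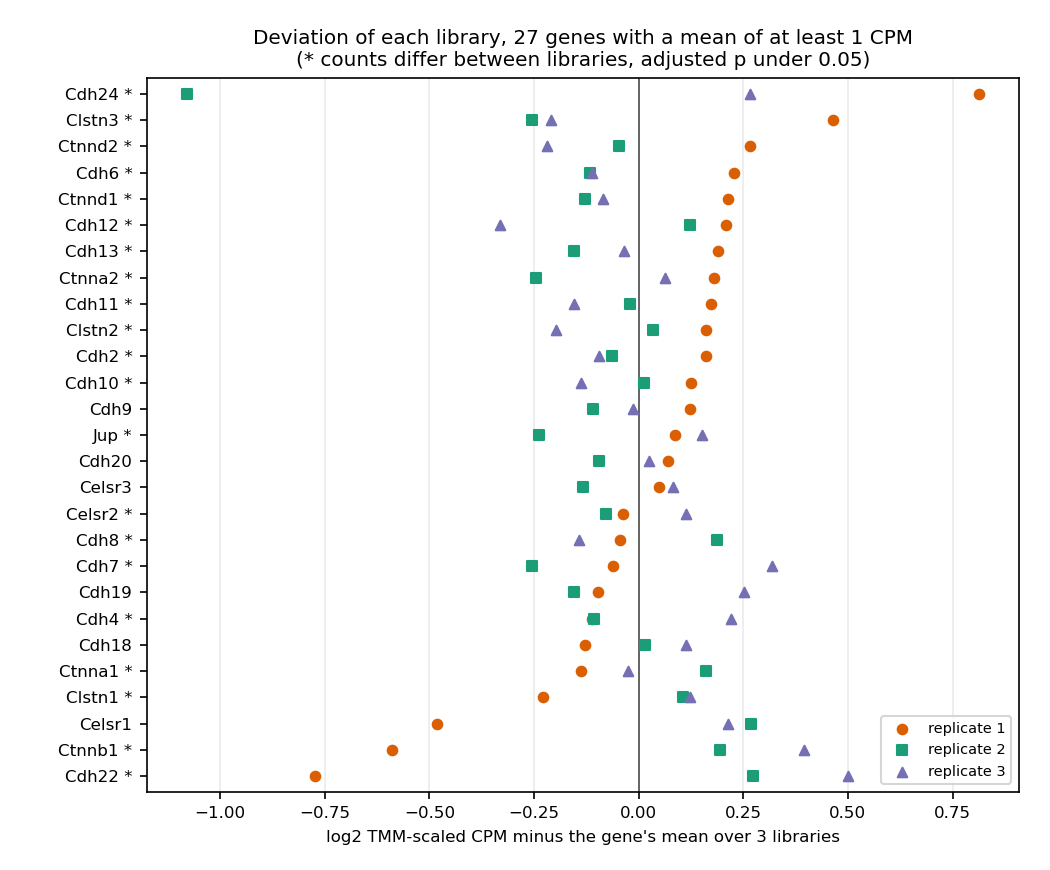
Deviation of each library from the gene's mean, in log2 of TMM-scaled CPM, for the 27 genes whose mean reached 1 CPM. Genes are sorted by replicate 1, with Cdh22 and Ctnnb1 at the bottom, where replicate 1 is lowest, and a star marks the 21 genes whose counts differ between libraries.

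Genes of the surrounding machinery were present as well. All 19 partners of cadherin tails and junction linkers reached 1 TPM in every library (73.0% of genes with a length and a count). Of these 19, 3 were higher (background 13.4%) and 15 lower (background 79.8%) than Cdh2, shares close to those of all genes tested. The median of the 19 was 25.8 ± 2.02 TPM. Pkp4, a delta-catenin relative, stood at 404 ± 77.8 TPM, and the scaffold genes Lin7a and Lin7c at 291 ± 33.7 and 126 ± 2.02 TPM (edgeR, adjusted p = 1.51e-06, 1.28e-06 and 0.00141). Magi2, a synaptic scaffold, did not pass the test in either direction, and Pvrl2, an old symbol of a nectin gene, was lowest at 1.82 TPM. All 6 genes of cadherin cleavage were lower than Cdh2 (background 79.8%), led by the gamma-secretase gene Ncstn at 54.1 ± 8.83 TPM, with the protease Furin at 3.11 TPM.

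Desmosomal genes, by contrast, had a median of 0.124 TPM. Of the 11 genes, 3 had no count, Dsg4 among them. That is not unusual, as only 16652 of all 23891 genes with a length had a count. Of these 11, 5 could be tested and were lower than Cdh2 (background 79.8%). Pkp2 stood at 13.6 ± 4.54 TPM and Dsg2 at 2.44 ± 1.54 TPM. Of 10 Fat, Dachsous and Cdhr genes, 7 could be tested and were lower than Cdh2 (background 79.8%), led by the giant cadherins Fat3 at 41.2 ± 5.79 TPM and Fat1 at 22.4 ± 3.36 TPM. Cdhr5 was among the 2 of 10 with no count, beside the same background of 16652 genes with a count among 23891.

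Among 10 planar polarity genes that act with Celsr proteins, 1 was higher (background 11.7%) and 7 were lower (background 82.0%) than Celsr2. Prickle2 stood at 134 ± 6.60 TPM (edgeR, adjusted p = 0.00635) and Dvl3 at 117 ± 19.8 TPM, which did not pass the test against Celsr2 (edgeR, adjusted p = 0.159). The lowest was Ptk7 at 0.552 TPM, and the list median was 9.55 ± 3.19 TPM. Partners of calsyntenins were higher, with a median of 225 ± 6.60 TPM over 9 genes. The kinesin heavy chain genes Kif5c at 856 ± 62.5 TPM and Kif5a at 567 ± 63.7 TPM were above Clstn1 (background 1.63%; edgeR, adjusted p = 5.94e-06 and 0.0141), 6 genes were below it (background 95.9%), and Klc1, a kinesin light chain, did not pass the test (edgeR, adjusted p = 0.247). Apba3 was lowest at 3.33 TPM.

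Many numbered cadherins lie in groups on a few chromosomes, and genes of a group spanned a wide range of levels. In GRCm38 coordinates, chromosome 8 holds 8 of them between 99024471 and 122867397, with means from 0.0276 TPM (Cdh3) to 66.1 TPM (Cdh11, 102632095 to 102785642, minus strand). Chromosome 15 holds 5, all of type II, between 13028701 and 23474418, with means from 7.23 TPM (Cdh6) to 59.5 TPM (Cdh12, 20449265 to 21589533, plus strand). Cdh3 and Cdh1, 46.1 kb apart on chromosome 8, were both near 0. Of the reference genes, Ctnnb1 lies on chromosome 9 from 120929216 to 120960507, Clstn1 on chromosome 4 from 149586468 to 149648899 and Celsr2 on chromosome 3 from 108390851 to 108415552. Ctnnd2 lies on chromosome 15 from 30172593 to 31029341. Cdh13 occupies 118283733 to 119324921 on chromosome 8.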

How the data were processed

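Whole-number read counts per gene were deposited by the authors, 1 file per library and not normalized. The submitters' processing notes list STAR 2.0.0e, HTSeq and the build mm10 without saying what each did. Annotation, counting mode and strand setting were not given in the sources used here. Reads of overlapping genes, including those on opposite strands, cannot be told apart. The 5 lines that name no gene held 25.5%, 25.1% and 28.8% of records and were left out.

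From these counts TPM was computed with the merged exons of GENCODE M21 on GRCm38, the assembly that mm10 denotes. Lengths were found for 23155 symbols directly and 736 by an older name, and 8641 symbols had none. All 36 genes matched directly. Genes with a length held 97.0%, 97.1% and 94.7% of counts. A count of 3, the limit for a gene at 0, equals 0.209, 0.215 and 0.207 CPM, counts scaled to library size. Intervals and limits cover counting error only.

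Each gene's counts were compared with those of a reference gene in the same library by an edgeR 4.0.16 quasi-likelihood F-test with an intercept only, an offset of the reference count times the ratio of exon lengths, at least 10 counts in total, two-sided, with a threshold of 0.05 after Benjamini-Hochberg adjustment over all genes tested. edgeR's own test function takes no design of this kind, so the F statistic was formed from the fitted deviances, with a dispersion trend estimated on genes with at least 10 counts in total. Variation between libraries was tested with a chi-square test after TMM scaling where the mean reached 1 CPM. Alternatives were the longest or principal transcript as length, no length correction, limma 3.58.1 on log2(TPM + 0.1) or log2(TPM + 1), DESeq2 1.42.0, other count filters, and each replicate left out. limma without moderation was added after the data were seen. Fits were also run on simulated data with less spread between libraries than the common spread found here. Those runs therefore do not show how the tests behave at the spread of these libraries. R 4.3.3, Python 3.11.15 and bedtools 2.31.1 were used.

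The genes, gene lists and reference genes were chosen with earlier results of these data known. Genes with a mean of at least 10 TPM and all catenins, calsyntenins and Celsr genes are given per library, and of each other list the 2 highest genes and the lowest are named, except for genes that are not reported here. Magi2, Klc1, Lin7c, Cdh3, Cdh6, Cdh22, Cdh23 and Cdh24 were named after their values were seen.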

Additional observations from a re-analysis of the deposited data

How the results depend on the processing

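The 27 log2 differences to a reference gene were recomputed to give 318 values under other settings. Of these, 311 kept their direction and their side of the threshold, 7 kept their direction but no longer passed, and 0 reversed. The 7 were Cdh13 against Cdh2 with the principal transcript as length (-0.06), Ctnnd2 (1.50) and Ctnnd1 (-1.61) against Ctnnb1 with limma without moderation, Ctnna2 (-1.76), Ctnnd1 (-1.31) and Ctnnd2 (1.80) without replicate 2, and Ctnnd1 (-1.27) without replicate 3. The number of catenin genes higher than Ctnnb1 was 1, and 0 with limma without moderation. Leaving out 1 replicate at a time gave 0 to 1 higher and 3 to 5 lower. Of the 27 genes tested, 21 varied between libraries (background 74.3% of all genes tested). With 1 replicate left out, 12 to 17 did so (background 42.5% to 62.2%). These shares are close to those of all genes. The median level of the 36 genes, averaged over libraries, was 21.9 TPM, and 24.3 TPM with the longest transcript as length. Leaving out replicate 3 gave no value for Cdh1 and Cdh15, and the filter at 1 CPM none for Cdh1, Cdh5, Cdh15 and Ctnna3. No paired analysis was possible because the libraries form a single group.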

Other observations

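Other adhesion families that share these membranes were compared with the cadherins in the same libraries. The 12 non-clustered protocadherins had a median level of 47.2 ± 1.73 TPM, and 4 were higher (background 13.4% of all genes tested) and 8 lower (background 79.8%) than Cdh2 by edgeR's quasi-likelihood test. Pcdh1 stood at 167 ± 6.70 TPM and Pcdh9 at 145 ± 2.18 TPM, and the lowest was Pcdh12, a gene of endothelial cells, at 0.719, 0.117 and 0 TPM in replicates 1, 2 and 3. The neurexins and neuroligins, which join the sides of a synapse, had a median of 124 ± 12.9 TPM over 6 genes. Nrxn3 stood at 387 ± 79.0 TPM, 4 of the 6 were higher than Cdh2 and 2 were lower, against the same background, and Nrxn2 was lowest at 37.4 TPM.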
